A study of Mus musculus with 12 samples.

Results

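The genes described here encode the heat shock proteins and the DnaJ co-chaperones. They are the listed genes whose symbol begins with Hspa, Hspb, Hspd, Hspe or Hsph followed by a number, with Hsp90, or with Dnaja, Dnajb or Dnajc followed by a number, together with Cryab. The rule found 73 of the 25094 genes listed for each strain. By class they were 9 small heat shock proteins, 14 members of the Hsp70 class, the 2 mitochondrial chaperonin subunits Hspd1 and Hspe1, 3 members of the Hsp90 class and 45 DnaJ co-chaperones. A mean of at least 0.5 RPKM (reads scaled to transcript length and to the size of the library) in 1 or more groups was reached by 65 of the 73, and the same 65 entered the test of each strain. The members just inside that limit were Dnajb3, with a highest group mean of 0.726 RPKM, and Hspa1b, with 0.831 RPKM. Just outside it were Hspb9, with 0.1703 RPKM, and Dnajb13, with 0.0927 RPKM, and the other members left out were Dnajb7, Dnajb8, Dnajc5b, Dnajc5g, Dnajc6 and Dnajc22. Dnajb3 and Hspa1b passed only through their right legs, where they were high, so their higher right legs are in part what that limit required.

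Poly(A) RNA was sequenced from the gastrocnemius, the large calf muscle, of male wild-type BALB/c and C57BL/6 mice. The right sciatic nerve had been severed, both stumps folded back and stitched to muscle, and the muscle was removed 2 weeks after surgery. The 4 groups, of 3 libraries each, were BALB/c right leg (denervated), BALB/c left leg (labelled healthy), C57BL/6 right leg (denervated) and C57BL/6 left leg (labelled healthy). The protocol mentions a sham operation in which the nerve was only exposed, but the labels leave unsaid if it was done on the left side. Age is not in the labels, and none says that the 3 libraries of a group are separate animals, so the p-values measure the spread between these libraries only, which may be technical. The comparison of legs asks how the muscle's messenger RNA differed after the loss of its nerve.

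Heat shock proteins are chaperones: they bind unfolded or damaged proteins and keep them from clumping, refold them or pass them on for degradation. Small heat shock proteins hold unfolding proteins without using ATP. In striated muscle several of them sit on the Z-disc and on the desmin and actin filaments. Hsp70 and Hsp90 proteins bind and release their clients in cycles driven by ATP. DnaJ proteins bring clients to Hsp70 and start its ATP hydrolysis, and exchange factors such as the Hsp110 proteins and the Bag proteins end the cycle by releasing nucleotide. Many genes of these families are switched on by the transcription factor Hsf1, which binds repeats of the letters GAA and their complement TTC.

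The promoters of 6 members with called changes or strain differences are shown so that the letters Hsf1 is known to bind can be looked for beside the values. These 6 were picked by hand, so the matches among them do not give the share among members with called changes. The RefSeq promoter table (build GRCm38.p6) gives windows from 250 bases before to 50 bases after each annotated start, and 58 of the 73 members have one. A pair of inverted repeats, GAANNTTC or TTCNNGAA, each of which reads the same on both strands, was searched in every window, with overlapping matches counted separately. It was found for 16 of the 58 members (27.6%) and for 4587 of all 27025 genes in the table (17.0%). A run of 3 such alternating units, each 2 bases from the next, was found for 4 of the 58 members (6.90%), namely Hsph1, Dnajb6, Hspd1 and Hspe1, and for 179 of all genes (0.662%). Hspd1 and Hspe1 lie head to head and share their matches. Each sequence below runs 5′ to 3′ from 150 bases before to 30 bases after the start, with the matches in capitals. Where a gene has several windows, one that holds a match is given. Hspb6 and Dnaja4 each have 2 windows, of which only 1 holds a match, and both windows of Hsph1 hold one. Windows were not matched to the transcript listed for each strain, which for Hspb6 differs. Hspb7, the small heat shock protein gene whose fold change was highest in C57BL/6, has no match in its window.
Hspb7 (chr4:141420629-141420808, strand +): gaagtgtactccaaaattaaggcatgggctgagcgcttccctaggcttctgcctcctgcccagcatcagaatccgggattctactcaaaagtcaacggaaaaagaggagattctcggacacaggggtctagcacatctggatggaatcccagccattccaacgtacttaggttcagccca
Hspb8 (chr5:116422835-116423014, strand -): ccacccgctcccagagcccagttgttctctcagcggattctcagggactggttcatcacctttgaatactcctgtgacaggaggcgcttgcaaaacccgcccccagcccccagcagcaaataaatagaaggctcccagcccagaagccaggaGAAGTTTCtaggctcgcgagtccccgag
Hspb1 (chr5:135887769-135887948, strand +): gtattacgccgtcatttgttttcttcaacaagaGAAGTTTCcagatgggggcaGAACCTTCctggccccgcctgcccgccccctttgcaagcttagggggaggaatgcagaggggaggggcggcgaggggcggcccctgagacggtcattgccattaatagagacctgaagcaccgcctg
Hspb6 (chr7:30553151-30553330, strand +): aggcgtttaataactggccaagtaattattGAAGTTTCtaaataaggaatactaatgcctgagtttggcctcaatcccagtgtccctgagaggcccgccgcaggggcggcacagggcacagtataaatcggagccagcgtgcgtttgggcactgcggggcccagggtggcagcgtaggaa
Hsph1 (chr5:149636286-149636465, strand -): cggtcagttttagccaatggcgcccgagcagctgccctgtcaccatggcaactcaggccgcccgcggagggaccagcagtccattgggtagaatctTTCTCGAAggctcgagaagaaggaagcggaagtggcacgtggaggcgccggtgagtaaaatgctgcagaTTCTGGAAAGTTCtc
Dnaja4 (chr9:54699409-54699588, strand +): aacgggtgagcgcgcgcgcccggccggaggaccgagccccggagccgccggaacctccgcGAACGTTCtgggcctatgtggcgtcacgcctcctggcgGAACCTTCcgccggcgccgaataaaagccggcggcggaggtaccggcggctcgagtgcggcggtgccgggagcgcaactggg
A match describes letters, not binding. Besides these genes, the pair was found in windows of Hspb3, Hspa1a, Hspa1b, Dnaja1, Dnajb4, Dnajc10, Dnajc27 and Dnajc5g, one of the genes under the limit of 0.5 RPKM. Dnajb1 has windows, and none holds a match. The windows of other members with called changes also lack one, among them Hspa2, Hspa4, Hspa4l, Hspa5, Hsp90b1, Dnajb2, Dnajb14, Dnajc8 and Dnajc21. Without a window, and so not searched, were Cryab, Hspb2, Hspa8, Hspa9, Hspa13, Hsp90aa1, Hsp90ab1, Dnajc2, Dnajc5, Dnajc5b, Dnajc11, Dnajc12, Dnajc18, Dnajc22 and Dnajc30.

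Library totals behind the RPKM values were 18132800 to 19282800 reads, of which 14827001 to 17323370 lay in listed genes. The 6 myofibre markers, among them actin and titin genes, summed to 33101 to 54354 RPKM in BALB/c right legs, 56133 to 67083 in BALB/c left legs, 43343 to 49853 in C57BL/6 right legs and 62526 to 69694 in C57BL/6 left legs. Some libraries stood apart. The 8 slow fibre markers summed to 331, 2758 and 2650.1 RPKM in BALB/c left libraries 1, 2 and 3. The 5 erythroid markers summed to 12362, 27000.0 and 369 RPKM in BALB/c right libraries 1, 2 and 3. The 7 Schwann cell markers summed to 190.3, 6.66 and 23.9 RPKM in C57BL/6 left libraries 1, 2 and 3. On the log2(RPKM + 0.5) scale the change of the median gene from left to right leg was 0.38 in BALB/c and 0.52 in C57BL/6, so the members are also set against that shift and against values rescaled by median-of-ratios factors. In bulk tissue, fewer cells of a type and less RNA per cell cannot be told apart.

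Most members were higher in the denervated leg. In BALB/c, limma called 44 of the 65 tested members (67.7%) higher and 3 lower, while 42.5% of all 14819 tested genes were called higher and 7.67% lower. In C57BL/6, 50 of 65 (76.9%) were called higher and 3 lower, while 63.6% of all 14551 tested genes were called higher and 8.56% lower. The threshold for a call was an adjusted p of 0.05, with the adjustment over all genes tested. The members' median log2 change was 0.77 in BALB/c and 0.92 in C57BL/6, against 0.38 and 0.52 for all tested genes of those strains, and 44 members in BALB/c and 45 in C57BL/6 lay above the median gene. Called higher in both strains were 41 members, and 2, Dnajb5 and Dnajc27, were called lower in both. The share of all genes called alike in both strains was not counted, so these counts have no such share beside them.

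After median-of-ratios rescaling, which moves the median gene to about 0, 24 of the 65 members were called higher and 11 lower in BALB/c, where 21.8% and 19.2% of all genes were. In C57BL/6 the rescaled counts were 30 higher and 19 lower, where 28.2% and 26.6% of all genes were. Under both scalings and in both strains 20 members were called higher: Cryab, Hspb1, Hspb3, Hspb7, Hspb8, Hspa4, Hspa4l, Hsph1, Hsp90aa1, Hsp90ab1, Hsp90b1, Dnaja1, Dnajb2, Dnajb3, Dnajb6, Dnajb11, Dnajb14, Dnajc1, Dnajc2 and Dnajc8. Of these, Dnajb3 passed the limit of 0.5 RPKM only through its right legs, so its calls are in part what that limit required. The share of all genes called higher in all of these settings was not counted. Summed over all 73 members, the RPKM came to 7509 ± 1116 in BALB/c right legs, against 3207 ± 585 in BALB/c left legs, and to 9738 ± 1302 in C57BL/6 right legs, against 2477 ± 32.99 in C57BL/6 left legs (SD, n = 3 each). The small heat shock proteins made up most of that sum in the right legs, with 3902 to 6210.3 RPKM in BALB/c and 5569 to 8461 RPKM in C57BL/6.

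**Figure D1:**
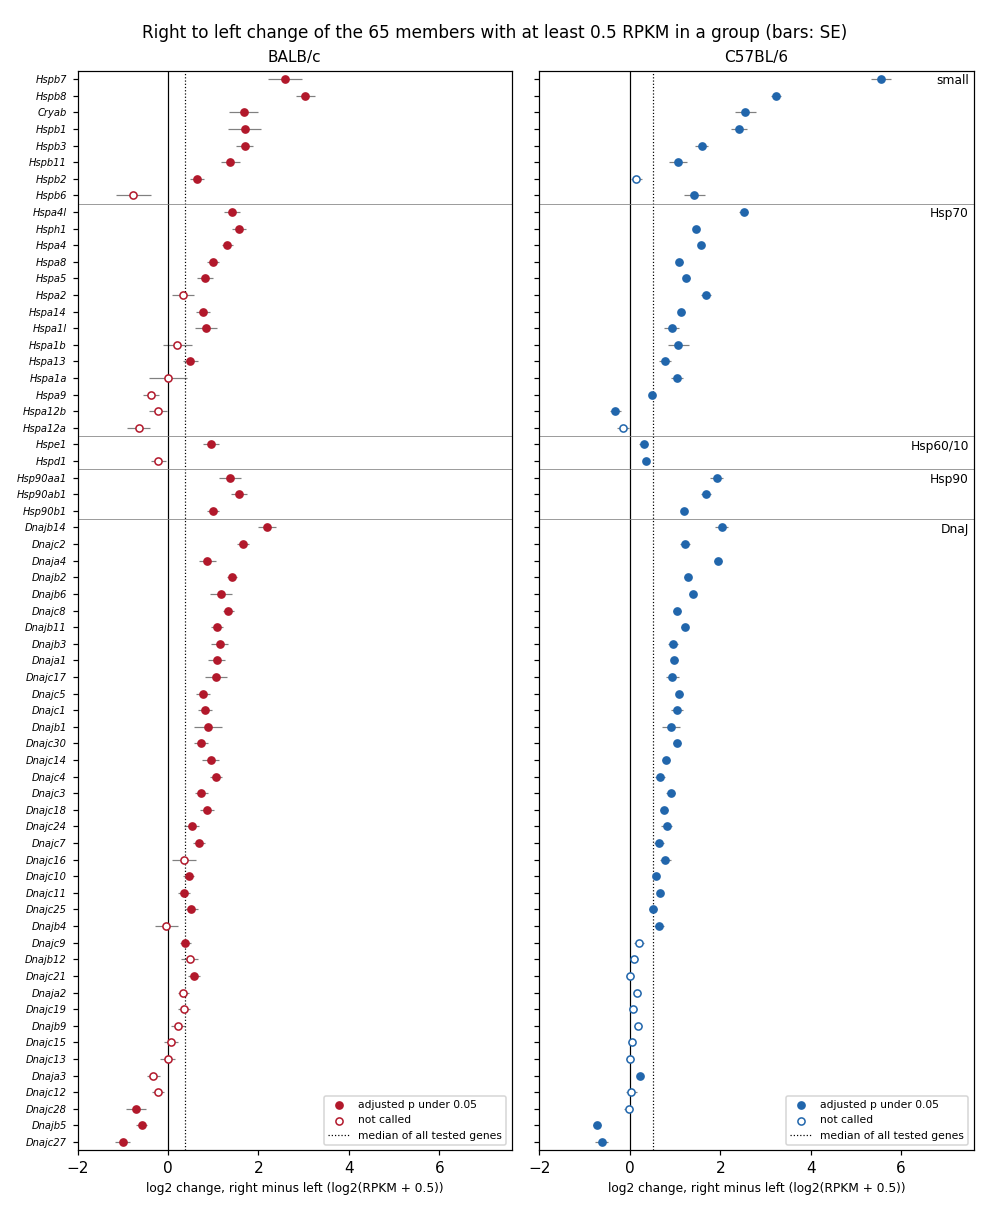
Log2 change between the right and left leg, on the log2(RPKM + 0.5) scale, of the 65 members with at least 0.5 RPKM in a group, by class, in BALB/c (left panel) and C57BL/6 (right panel). Points are limma estimates with their standard error, filled where the adjusted p was under 0.05, and the dotted line is the median of all tested genes (0.38 and 0.52); the small heat shock proteins Hspb7 and Hspb8 lie farthest to the right in both panels, and Dnajb5 and Dnajc27 lie left of 0 in both.

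On the log2(RPKM + 0.5) scale, the small heat shock proteins held the largest called changes among the members in both strains. Of the 8 tested, 7 (87.5%) were called higher in each strain, against 42.5% of all genes in BALB/c and 63.6% in C57BL/6. Their median log2 change was 1.69 in BALB/c and 2.0 in C57BL/6. After rescaling, 6 of the 8 were called higher and 1, Hspb6, lower in BALB/c, and 6 higher and 1, Hspb2, lower in C57BL/6. Of all genes, 21.8% were then called higher and 19.2% lower in BALB/c, and 28.2% and 26.6% in C57BL/6. Hspb8, which works with Bag3 to send damaged filament proteins to autophagy, had 950.4, 1068 and 1305 RPKM in BALB/c right legs, against 140.3, 108 and 155 RPKM in BALB/c left legs. It had 1611, 1614 and 1868 RPKM in C57BL/6 right legs, against 198, 159 and 186 RPKM in C57BL/6 left legs. The legs did not overlap in either strain, and each right library was several times above every left one. The log2 change was 3.04 ± 0.20 (SE) in BALB/c (limma, adjusted p = 3.82e-05) and 3.23 ± 0.11 (SE) in C57BL/6 (adjusted p = 1.11e-06).

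Hspb7, a small heat shock protein of heart and skeletal muscle that binds filamin C, had 870.2, 1448 and 1069 RPKM in BALB/c right legs, against 99.1, 246 and 252 RPKM in BALB/c left legs. It had 1025, 1604 and 1463 RPKM in C57BL/6 right legs, against 25.7, 37.8 and 22.6 RPKM in C57BL/6 left legs. The right legs of the strains lay close together, while the left legs differed: every BALB/c left library was above every C57BL/6 left library, and BALB/c left library 1 was the lowest of its group. The strains were normalized separately, so levels were not tested between them, here or for the genes below. The log2 change was 2.59 ± 0.38 (SE) in BALB/c (limma, adjusted p = 0.00084) and 5.55 ± 0.23 (SE) in C57BL/6 (adjusted p = 2.05e-06). The files place Hspb7 at chr4:140976694-140981225 and Hspb8 at chr5:116858500-116872873 in the mm9 build.

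Cryab, alpha-B crystallin, which protects desmin and titin, was the most abundant member in the right legs. It had 1362, 2403 and 1472 RPKM in BALB/c right legs, against 361, 696 and 582 RPKM in BALB/c left legs. It had 1793, 3263 and 2503 RPKM in C57BL/6 right legs, against 336, 473 and 459 RPKM in C57BL/6 left legs. Library 2 was the highest right library in both strains, and the legs did not overlap. Cryab rose by 1.68 ± 0.32 (SE) log2 units in BALB/c (limma, adjusted p = 0.00303) and by 2.55 ± 0.23 (SE) in C57BL/6 (adjusted p = 5.14e-05). It lies at chr9:50561076-50564740 (mm9).

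Hspb1 (Hsp25), which binds actin and holds unfolding proteins, had 122, 278 and 137 RPKM in BALB/c right legs, against 35.7, 50.3 and 74.3 RPKM in BALB/c left legs. Its values were 128, 213 and 193 RPKM in C57BL/6 right legs, against 30.5, 33.7 and 32.6 RPKM in C57BL/6 left legs. Right library 2 was again the highest, and no left library reached a right one. Hspb1 rose by 1.7 ± 0.36 (SE) log2 units in BALB/c (limma, adjusted p = 0.0051) and by 2.41 ± 0.18 (SE) in C57BL/6 (adjusted p = 2.02e-05).

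Hspb3 and Hspb2 form a complex with each other in muscle. Hspb3 had 84.3, 125 and 112 RPKM in BALB/c right legs, against 31.98, 27.6 and 37.97 RPKM in BALB/c left legs. Its values were 119, 84.8 and 88.9 RPKM in C57BL/6 right legs, against 30.6, 28.9 and 36.4 RPKM in C57BL/6 left legs. The legs of Hspb3 did not overlap, and it rose by 1.7 ± 0.19 (SE) log2 units in BALB/c (limma, adjusted p = 0.000236) and by 1.59 ± 0.15 (SE) in C57BL/6 (adjusted p = 5.36e-05). Hspb2 had 89.5, 109 and 96.8 RPKM in BALB/c right legs, against 56.4, 58.04 and 74.5 RPKM in BALB/c left legs. In BALB/c it rose by 0.65 ± 0.16 (SE) (adjusted p = 0.00941). Hspb2 had 73.4, 85.4 and 73.5 RPKM in C57BL/6 right legs, against 58.1, 78.2 and 75.3 RPKM in C57BL/6 left legs; there the legs overlapped, and the change of 0.14 ± 0.13 (SE) was not called (adjusted p = 0.342). After rescaling, Hspb2 was called lower in C57BL/6, with -0.57, and was not called in BALB/c, with 0.13. The tables list another transcript of Hspb2 in each strain, of 554 bases in BALB/c and 836 bases in C57BL/6.

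Hspb6 (Hsp20), a partner of Cryab and Hspb1, was the one tested small heat shock protein not called higher in BALB/c. It had 414, 769 and 306 RPKM in BALB/c right legs, against 512, 1033 and 915 RPKM in BALB/c left legs. It had 811, 1588 and 1129.9 RPKM in C57BL/6 right legs, against 452, 419 and 394 RPKM in C57BL/6 left legs. The BALB/c legs overlapped, whereas every C57BL/6 right library was above every left one. The log2 change was -0.77 ± 0.39 (SE) in BALB/c, which was not called (limma, adjusted p = 0.132), and 1.43 ± 0.22 (SE) in C57BL/6 (adjusted p = 0.000807). Without BALB/c right library 2, the BALB/c change was called lower, at -1.14 (adjusted p = 0.028), and over all left-out libraries it ranged from -1.14 to -0.48 (adjusted p 0.028 to 0.376). Rescaling gave -1.30 in BALB/c (adjusted p = 0.0387) and 0.71 in C57BL/6 (adjusted p = 0.0246), which were called in opposite directions. The listed transcripts of Hspb6 differ between the tables (1283 bases in BALB/c and 1325 in C57BL/6), and its span overlaps Lin37, whose reads were not separated by strand. Hspb11, which carries a small heat shock protein name but serves in intraflagellar transport, rose by 1.38 ± 0.21 (SE) in BALB/c (adjusted p = 0.000975) and by 1.06 ± 0.19 (SE) in C57BL/6 (adjusted p = 0.00156), and the C57BL/6 call was lost after rescaling (0.40, adjusted p = 0.109).

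**Figure D2:**
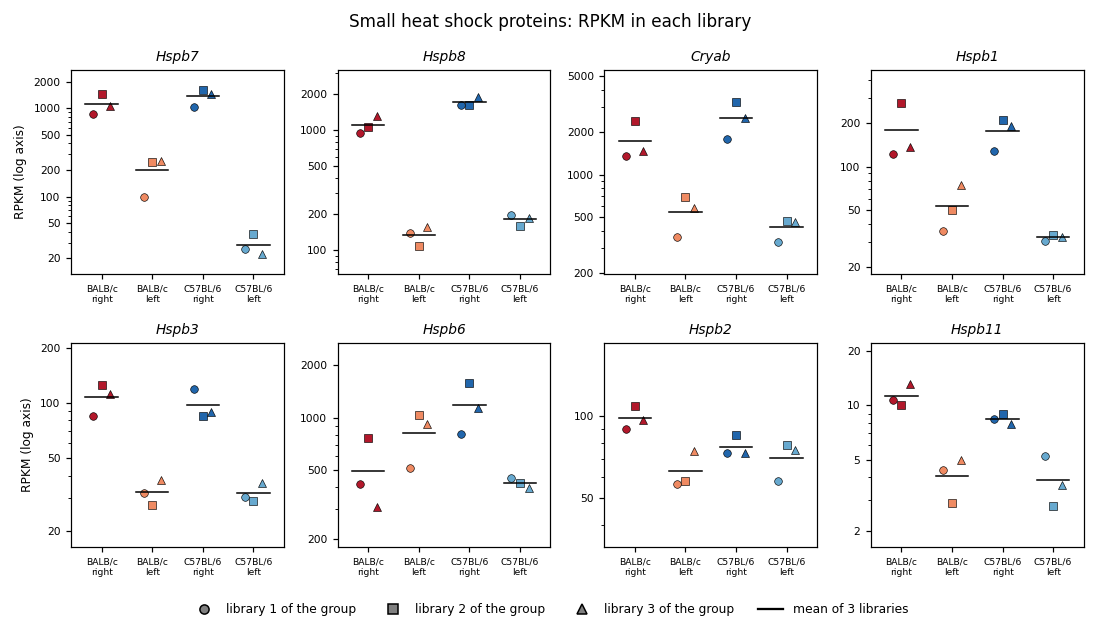
RPKM (log axis) of the 8 tested small heat shock proteins in each library of BALB/c right, BALB/c left, C57BL/6 right and C57BL/6 left legs; marker shapes give the library number and bars the mean of 3 libraries. All right libraries lie above all left libraries of their strain for Hspb7, Hspb8, Cryab, Hspb1, Hspb3 and Hspb11, while the BALB/c legs overlap for Hspb6 and the C57BL/6 legs overlap for Hspb2.

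In the Hsp70 class, 8 of 14 members (57.1%) were called higher in BALB/c, and 12 of 14 (85.7%) higher and 1 lower in C57BL/6. Of all genes, 42.5% were called higher in BALB/c, and 63.6% higher and 8.56% lower in C57BL/6. The median log2 change was 0.64 in BALB/c and 1.09 in C57BL/6. After rescaling, the counts were 3 higher (21.4%) and 3 lower (21.4%) in BALB/c, near the 21.8% and 19.2% of all genes. In C57BL/6 they were 9 higher (64.3%) and 3 lower (21.4%), against 28.2% and 26.6% of all genes. The Hsp110 proteins, large relatives that act as exchange factors for Hsp70, were called higher in both strains under both scalings. Hspa4 (Apg-2) had 40.1, 40.8 and 41.1 RPKM in BALB/c right legs, against 14.7, 17.6 and 15.98 RPKM in BALB/c left legs. It had 47.04, 45.7 and 45.6 RPKM in C57BL/6 right legs, against 15.5, 15.7 and 14.3 RPKM in C57BL/6 left legs. Its libraries lay close together within each group and far apart between the legs, with a log2 change of 1.32 ± 0.12 (SE) in BALB/c (limma, adjusted p = 0.000122) and 1.57 ± 0.07 (SE) in C57BL/6 (adjusted p = 2.2e-06).

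Hsph1 (Hsp105), whose promoter holds the 3-unit repeat shown above, had 25.3, 20.2 and 25.1 RPKM in BALB/c right legs, against 6.89, 8.66 and 7.22 RPKM in BALB/c left legs. Its values were 32.1, 33.8 and 34.4 RPKM in C57BL/6 right legs, against 11.9, 12.1 and 11.5 RPKM in C57BL/6 left legs. The legs did not overlap, and Hsph1 rose by 1.57 ± 0.15 (SE) in BALB/c (limma, adjusted p = 0.00014) and by 1.46 ± 0.06 (SE) in C57BL/6 (adjusted p = 2.69e-06). Hspa4l, the third of these proteins, had 3.34, 2.76 and 2.54 RPKM in BALB/c right legs, against 0.713, 1.03 and 0.578 RPKM in BALB/c left legs. Its values were 5.72, 6.39 and 6.903 RPKM in C57BL/6 right legs, against 0.775, 0.634 and 0.661 RPKM in C57BL/6 left legs. The left legs of the separately normalized strains lay in the same range, and the C57BL/6 right libraries were all above the BALB/c right libraries. Hspa4l rose by 1.42 ± 0.19 (SE) in BALB/c (adjusted p = 0.000539) and by 2.52 ± 0.10 (SE) in C57BL/6 (adjusted p = 1.98e-06).

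Hspa8 (Hsc70), the constitutive cytosolic Hsp70, had 135, 165 and 161 RPKM in BALB/c right legs, against 77.2, 77.6 and 76.1 RPKM in BALB/c left legs. Its values were 255, 219.6 and 225 RPKM in C57BL/6 right legs, against 111, 109.5 and 106 RPKM in C57BL/6 left legs. The legs did not overlap, and in the right legs of both strains no other gene of the class had a higher mean. Hspa8 rose by 0.99 ± 0.13 (SE) in BALB/c (limma, adjusted p = 0.000612) and by 1.10 ± 0.08 (SE) in C57BL/6 (adjusted p = 1.9e-05), and after rescaling the BALB/c change was 0.46 and no longer called (adjusted p = 0.0637). The tables list different Hspa8 transcripts, of 2036 bases in BALB/c and 2093 in C57BL/6. Hspa5 (BiP), the Hsp70 of the endoplasmic reticulum, had 62.8, 64.5 and 87.6 RPKM in BALB/c right legs, against 34.5, 45.97 and 40.6 RPKM in BALB/c left legs. Its values were 99.1, 91.2 and 86.6 RPKM in C57BL/6 right legs, against 39.5, 36.3 and 39.97 RPKM in C57BL/6 left legs. The legs of Hspa5 did not overlap. It rose by 0.81 ± 0.18 (SE) in BALB/c (adjusted p = 0.00567) and by 1.25 ± 0.08 (SE) in C57BL/6 (adjusted p = 9.75e-06), and rescaling left 0.29 in BALB/c (adjusted p = 0.168) and 0.53 in C57BL/6 (adjusted p = 0.000937).

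The stress-inducible genes Hspa1a and Hspa1b were near the lower end of what was measured. Hspa1a had 0.484, 1.42 and 0.649 RPKM in BALB/c right legs, against 0.196, 1.68 and 0.905 RPKM in BALB/c left legs. Its values were 0.955, 1.395 and 1.19 RPKM in C57BL/6 right legs, against 0.245, 0.344 and 0.342 RPKM in C57BL/6 left legs. Hspa1b had 0.389, 0.755 and 0.48 RPKM in BALB/c right legs, against 0.117, 1.04 and 0.249 RPKM in BALB/c left legs. Its values were 0.373, 1.11 and 1.01 RPKM in C57BL/6 right legs, against 0.169, 0.152 and 0.019 RPKM in C57BL/6 left legs. In BALB/c the legs overlapped for both genes, with left library 1 the lowest and left library 2 the highest of the left legs; in C57BL/6 every right library was above every left one. Over the 3 libraries of a leg, Hspa1a had 134 reads in the right legs and 142 in the left legs of BALB/c, and 188 and 49 in those of C57BL/6. The log2 changes in C57BL/6 were 1.04 ± 0.13 (SE) for Hspa1a (limma, adjusted p = 0.000212) and 1.08 ± 0.24 (SE) for Hspa1b (adjusted p = 0.00496). In BALB/c they were 0.01 ± 0.42 (SE) (adjusted p = 0.988) and 0.21 ± 0.33 (SE) (adjusted p = 0.626), neither of them called, and without BALB/c left library 2 Hspa1b was called higher, at 0.60 (adjusted p = 0.0412; 0.0412 to 0.902 over all left-out libraries). Hspa1b passed the limit of 0.5 RPKM only through its right legs, so its higher right legs are in part what that limit required. The open reading frames of Hspa1a and Hspa1b are 99.4% identical over 1929 aligned bases (GENCODE vM21), so how reads were split between the 2 genes is uncertain. Hspa1l, their neighbour with an 82.6% identical frame, had 12.4, 20.01 and 17.7 RPKM in BALB/c right legs, against 6.46, 9.97 and 10.9 RPKM in BALB/c left legs. Its values were 12.4, 17.96 and 15.8 RPKM in C57BL/6 right legs, against 9.03, 7.99 and 6.54 RPKM in C57BL/6 left legs. It rose by 0.84 ± 0.24 (SE) in BALB/c (adjusted p = 0.0194) and by 0.92 ± 0.16 (SE) in C57BL/6 (adjusted p = 0.00132); the BALB/c call was lost without left library 1 (0.63, adjusted p = 0.0567), right library 2 (0.70, adjusted p = 0.0605) or right library 3 (0.79, adjusted p = 0.0639). After rescaling, Hspa1l was called in neither strain, with 0.34 in BALB/c (adjusted p = 0.29) and 0.23 in C57BL/6 (adjusted p = 0.233).

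Of the remaining members, Hspa14, the Hsp70 of the ribosome-associated complex, rose by 0.78 in BALB/c (limma, adjusted p = 0.00395) and 1.14 in C57BL/6 (adjusted p = 1.45e-05), and rescaling ended the BALB/c call (0.29, adjusted p = 0.0798). Hspa13 rose by 0.50 in BALB/c (adjusted p = 0.044), a call lost without any 1 of the 6 libraries (0.35 to 0.58, adjusted p 0.0539 to 0.143), and by 0.78 in C57BL/6 (adjusted p = 0.000903). After rescaling Hspa13 was called in neither strain, with 0.09 in BALB/c (adjusted p = 0.654) and 0.21 in C57BL/6 (adjusted p = 0.175). The divergent members Hspa12a and Hspa12b had negative changes in both strains: Hspa12b, known from endothelial cells, fell by 0.32 in C57BL/6 (adjusted p = 0.041) and had -0.23 in BALB/c (adjusted p = 0.369), while Hspa12a had -0.65 in BALB/c (adjusted p = 0.0608) and -0.15 in C57BL/6 (adjusted p = 0.352). After rescaling both were called lower in both strains, Hspa12a with -0.94 in BALB/c (adjusted p = 0.0121) and -0.56 in C57BL/6 (adjusted p = 0.00998) and Hspa12b with -0.70 in BALB/c (adjusted p = 0.00993) and -0.96 in C57BL/6 (adjusted p = 0.00033). As deposited, the C57BL/6 call of Hspa12b was lost without left library 1, left library 2, right library 1 or right library 3 (-0.36 to -0.22, adjusted p 0.0335 to 0.126 over all left-out libraries), and without BALB/c left library 1 Hspa12a was called lower in BALB/c, at -0.87 (adjusted p 0.0202 to 0.145 over all left-out libraries). The 8 endothelial markers summed to 37.7 to 48.95 RPKM in C57BL/6 right legs and 42.4 to 49.7 RPKM in C57BL/6 left legs. As deposited, 3 of 8 (37.5%) were called lower there, against 8.56% of all genes. In BALB/c 2 of 8 (25%) were called lower and 1 higher, against 7.67% and 42.5%. After rescaling, 7 (87.5%) were called lower in C57BL/6 and 6 (75%) in BALB/c, against 26.6% and 19.2% of all genes. Their part in the Hspa12a and Hspa12b results was not tested.

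The mitochondrial chaperones differed in direction as deposited. Hspa9 (mortalin), which pulls imported proteins into mitochondria, had 70.9, 81.2 and 72.7 RPKM in BALB/c right legs, against 89.1, 123 and 84.3 RPKM in BALB/c left legs. Its values were 104, 117 and 113 RPKM in C57BL/6 right legs, against 79.8, 77.1 and 79.7 RPKM in C57BL/6 left legs. Every BALB/c right library was below every left one, and every C57BL/6 right library was above every left one. Hspa9 rose by 0.49 ± 0.07 (SE) in C57BL/6 (limma, adjusted p = 0.000524), and its BALB/c change of -0.38 ± 0.17 (SE) was not called (adjusted p = 0.0989). Hspd1 (Hsp60), the chaperonin ring, had 19.01, 17.97 and 18.4 RPKM in BALB/c right legs, against 19.8, 27.5 and 18.3 RPKM in BALB/c left legs. Its values were 28.7, 29.7 and 29.4 RPKM in C57BL/6 right legs, against 22.7, 21.8 and 24.1 RPKM in C57BL/6 left legs. The change of Hspd1 was -0.21 ± 0.17 (SE) in BALB/c (adjusted p = 0.316) and 0.35 ± 0.07 (SE) in C57BL/6 (adjusted p = 0.00218). Hspe1 (Hsp10), its lid, had 21.1, 30.7 and 24.7 RPKM in BALB/c right legs, against 11.5, 14.8 and 12.3 RPKM in BALB/c left legs. Its values were 23.5, 23.9 and 19.9 RPKM in C57BL/6 right legs, against 16.2, 18.4 and 19.7 RPKM in C57BL/6 left legs. Hspe1 rose by 0.95 ± 0.17 (SE) in BALB/c (adjusted p = 0.0024) and by 0.30 ± 0.10 (SE) in C57BL/6 (adjusted p = 0.0312). That C57BL/6 call was lost without left library 1, left library 2, right library 1 or right library 2, where the change was 0.23, 0.32, 0.27 and 0.26 (adjusted p 0.0158 to 0.0973 over all left-out libraries). After rescaling, Hspa9 and Hspd1 were called lower in both strains, Hspa9 with -0.90 in BALB/c (adjusted p = 0.0057) and -0.23 in C57BL/6 (adjusted p = 0.0266) and Hspd1 with -0.73 in BALB/c (adjusted p = 0.00683) and -0.36 in C57BL/6 (adjusted p = 0.00324). Rescaled, Hspe1 was not called in BALB/c and was called lower in C57BL/6, with 0.44 in BALB/c (adjusted p = 0.0966) and -0.40 in C57BL/6 (adjusted p = 0.0104). RefSeq names 5 pseudogenes of Hspd1 and 6 of Hspe1 that may share reads with them.

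All 3 members of the Hsp90 class were called higher in both strains and under both scalings. Of all genes, 42.5% in BALB/c and 63.6% in C57BL/6 were called higher as deposited, and 21.8% and 28.2% after rescaling. Hsp90ab1, the constitutive cytosolic form, had 1250.0, 1090.5 and 1419 RPKM in BALB/c right legs, against 418, 420.1 and 417 RPKM in BALB/c left legs. Its values were 1235, 992 and 1085 RPKM in C57BL/6 right legs, against 371, 336 and 320.0 RPKM in C57BL/6 left legs. It made up most of the RPKM of the class, and the legs were separated by more than the whole range within either leg. Hsp90ab1 rose by 1.57 ± 0.18 (SE) in BALB/c (limma, adjusted p = 0.00025) and by 1.68 ± 0.11 (SE) in C57BL/6 (adjusted p = 1.17e-05). Hsp90aa1, the inducible cytosolic form that also serves myosin folding, had 8.36, 8.75 and 9.502 RPKM in BALB/c right legs, against 2.12, 4.72 and 2.88 RPKM in BALB/c left legs. Its values were 9.07, 10.8 and 12.4 RPKM in C57BL/6 right legs, against 2.67, 2.69 and 2.04 RPKM in C57BL/6 left legs. Hsp90aa1 rose by 1.38 ± 0.24 (SE) in BALB/c (adjusted p = 0.00215) and by 1.92 ± 0.14 (SE) in C57BL/6 (adjusted p = 1.9e-05). Hsp90b1 (Grp94), the form of the endoplasmic reticulum, averaged 51.5 ± 3.33 RPKM in BALB/c right legs and 25.6 ± 2.7 RPKM in BALB/c left legs, and 48.9 ± 1.78 RPKM in C57BL/6 right legs and 21.1 ± 0.3902 RPKM in C57BL/6 left legs (SD, n = 3 each). Its log2 change was 1.0 ± 0.13 (SE) in BALB/c (adjusted p = 0.000525) and 1.20 ± 0.06 (SE) in C57BL/6 (adjusted p = 4.85e-06).

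**Figure D3:**
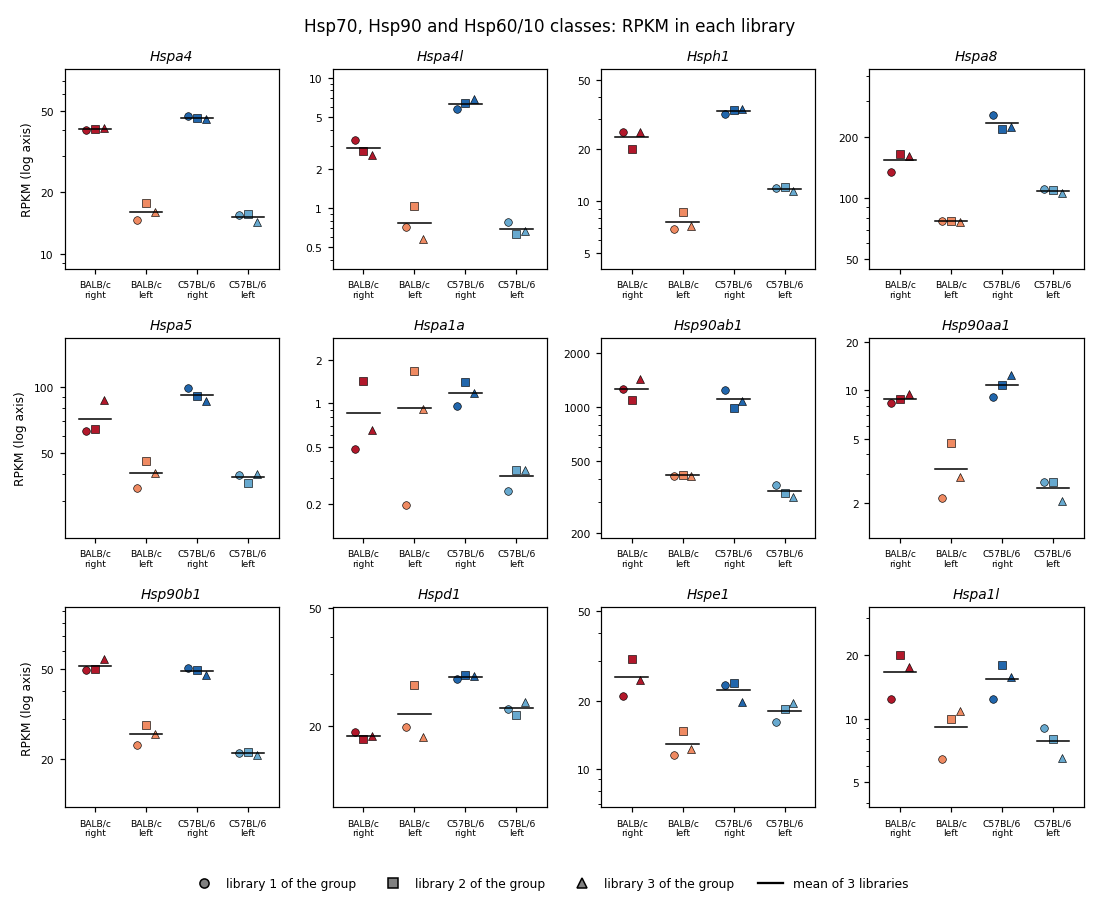
RPKM (log axis) in each library of 12 members of the Hsp70, Hsp90 and Hsp60/10 classes, in BALB/c right, BALB/c left, C57BL/6 right and C57BL/6 left legs; marker shapes give the library number and bars the mean of 3 libraries. Hspa4, Hsph1, Hspa8, Hspa5 and the 3 Hsp90 genes are higher in every right library than in every left library of the strain, whereas the BALB/c legs overlap for Hspa1a and Hspd1.

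Of the 38 tested DnaJ co-chaperones, 25 (65.8%) were called higher and 3 (7.89%) lower in BALB/c, against 42.5% and 7.67% of all genes. In C57BL/6, 26 (68.4%) were called higher, close to the 63.6% of all genes, and 2 (5.26%) lower, against 8.56%. Their median log2 change was 0.63 in BALB/c and 0.71 in C57BL/6. After rescaling, 12 (31.6%) were called higher and 6 (15.8%) lower in BALB/c, against 21.8% and 19.2% of all genes. In C57BL/6, 12 (31.6%) were then called higher and 13 (34.2%) lower, against 28.2% and 26.6% of all genes. The rescaled median was 0.14 in BALB/c and 0.04 in C57BL/6. The largest rise of the class on the log2(RPKM + 0.5) scale, in both strains, was that of Dnajb14, a J protein of the endoplasmic reticulum membrane. It had 5.23, 7.55 and 6.84 RPKM in BALB/c right legs, against 0.804, 1.198 and 1.11 RPKM in BALB/c left legs. Its values were 6.85, 5.38 and 5.49 RPKM in C57BL/6 right legs, against 1.37, 0.869 and 0.981 RPKM in C57BL/6 left legs. All right libraries were far above all left ones, with a log2 change of 2.19 ± 0.19 (SE) in BALB/c (limma, adjusted p = 9.45e-05) and 2.03 ± 0.15 (SE) in C57BL/6 (adjusted p = 1.86e-05).

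Dnajb6, mutated in a limb-girdle muscular dystrophy in humans and known to keep aggregating proteins apart, had 12.9, 7.495 and 14.8 RPKM in BALB/c right legs, against 4.98, 4.44 and 4.79 RPKM in BALB/c left legs. Its values were 19.5, 17.3 and 18.8 RPKM in C57BL/6 right legs, against 6.75, 6.95 and 6.5 RPKM in C57BL/6 left legs. BALB/c right library 2 was the lowest of its group and still above the left legs. Dnajb6 rose by 1.17 ± 0.24 (SE) in BALB/c (limma, adjusted p = 0.00415) and by 1.39 ± 0.07 (SE) in C57BL/6 (adjusted p = 5.33e-06). Dnajb2, which binds ubiquitinated clients and hands them to the proteasome, had 52.2, 57.5 and 58.8 RPKM in BALB/c right legs, against 19.95, 20.3 and 21.8 RPKM in BALB/c left legs. Its values were 53.2, 56.7 and 54.7 RPKM in C57BL/6 right legs, against 21.1, 22.7 and 23.3 RPKM in C57BL/6 left legs. The 2 strains, normalized separately, lay in the same ranges. Dnajb2 rose by 1.42 ± 0.12 (SE) in BALB/c (adjusted p = 8.33e-05) and by 1.28 ± 0.07 (SE) in C57BL/6 (adjusted p = 5.31e-06).

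Dnajc2, the J protein that works with Hspa14 at the ribosome, had 33.2, 30.5 and 36.4 RPKM in BALB/c right legs, against 10.4, 9.02 and 11.1 RPKM in BALB/c left legs. Its values were 26.3, 20.8 and 22.7 RPKM in C57BL/6 right legs, against 10.3, 9.07 and 9.66 RPKM in C57BL/6 left legs. It rose by 1.67 ± 0.14 (SE) in BALB/c (limma, adjusted p = 7.68e-05) and by 1.22 ± 0.10 (SE) in C57BL/6 (adjusted p = 3.2e-05). Dnajc8, found with the splicing machinery, rose by 1.34 ± 0.13 (SE) in BALB/c (adjusted p = 0.000132) and by 1.04 ± 0.09 (SE) in C57BL/6 (adjusted p = 3.61e-05). Dnaja4 had 26.4, 43.3 and 28.4 RPKM in BALB/c right legs, against 15.5, 18.4 and 17.9 RPKM in BALB/c left legs. Its values were 55.1, 60.5 and 53.7 RPKM in C57BL/6 right legs, against 14.7, 15.2 and 12.7 RPKM in C57BL/6 left legs. The left legs of the separately normalized strains lay close together, and every C57BL/6 right library was above every BALB/c right library. Dnaja4 rose by 0.87 ± 0.20 (SE) in BALB/c (adjusted p = 0.00696) and by 1.96 ± 0.09 (SE) in C57BL/6 (adjusted p = 3.03e-06), and the rescaled BALB/c change of 0.36 was not called (adjusted p = 0.246).

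The classical partners of cytosolic Hsp70, Dnaja1 and Dnajb1, were of low abundance. Dnaja1 had 3.33, 4.301 and 4.91 RPKM in BALB/c right legs, against 1.49, 1.797 and 1.83 RPKM in BALB/c left legs. Its values were 4.49, 4.33 and 4.903 RPKM in C57BL/6 right legs, against 2.103, 1.998 and 2.09 RPKM in C57BL/6 left legs. Dnajb1 (Hsp40), a well known Hsf1 target, had 4.81, 5.596 and 7.96 RPKM in BALB/c right legs, against 1.86, 4.77 and 2.96 RPKM in BALB/c left legs. Its values were 2.38, 2.92 and 4.41 RPKM in C57BL/6 right legs, against 1.31, 1.66 and 1.38 RPKM in C57BL/6 left legs. No legs of these genes overlapped, although BALB/c left library 2 of Dnajb1 came close to right library 1. Dnaja1 rose by 1.07 ± 0.18 (SE) in BALB/c (limma, adjusted p = 0.00163) and by 0.98 ± 0.08 (SE) in C57BL/6 (adjusted p = 3.64e-05). Dnajb1 rose by 0.89 ± 0.30 (SE) in BALB/c (adjusted p = 0.0405) and by 0.91 ± 0.19 (SE) in C57BL/6 (adjusted p = 0.00398). Rescaling ended the call of Dnajb1 in both strains, with 0.43 in BALB/c (adjusted p = 0.235) and 0.33 in C57BL/6 (adjusted p = 0.193). As deposited, the BALB/c call of Dnajb1 was lost without left library 1 (0.60), left library 3 (0.88), right library 2 (0.94) or right library 3 (0.70), with an adjusted p of 0.0095 to 0.134 over all left-out libraries. Dnajb4 had -0.04 ± 0.26 (SE) in BALB/c, which was not called (adjusted p = 0.904), and rose by 0.65 ± 0.11 (SE) in C57BL/6 (adjusted p = 0.00119); its listed transcript differs between the tables, and the C57BL/6 change turned to -0.03 after rescaling.

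Dnajc5 (cysteine string protein), which guards synaptic release, rose by 0.77 ± 0.16 (SE) in BALB/c (limma, adjusted p = 0.0045) and by 1.09 ± 0.08 (SE) in C57BL/6 (adjusted p = 1.81e-05), and rescaling ended the BALB/c call (0.26, adjusted p = 0.143). Among the J proteins of the endoplasmic reticulum, Dnajb11 had log2 changes of 1.08 in BALB/c and 1.21 in C57BL/6, Dnajc3 of 0.73 in BALB/c and 0.90 in C57BL/6, Dnajc10 of 0.46 in BALB/c and 0.58 in C57BL/6 and Dnajc1 of 0.81 in BALB/c and 1.04 in C57BL/6, and each was called in both strains, though Dnajc10 in BALB/c not without left library 1 or 3 or right library 1 or 3 (0.42 to 0.48, adjusted p 0.011 to 0.0643 over all left-out libraries). After rescaling, Dnajc3 was called in neither strain, with 0.25 in BALB/c (adjusted p = 0.122) and 0.26 in C57BL/6 (adjusted p = 0.0825), and Dnajc10 turned and was called in neither, with -0.03 in BALB/c (adjusted p = 0.848) and -0.09 in C57BL/6 (adjusted p = 0.307). Dnajb9 (ERdj4), a repressor of the stress sensor Ire1, had 12.4, 9.64 and 13.4 RPKM in BALB/c right legs, against 10.05, 9.67 and 10.1 RPKM in BALB/c left legs. Its values were 14.5, 17.7 and 15.4 RPKM in C57BL/6 right legs, against 13.2, 13.7 and 14.99 RPKM in C57BL/6 left legs. Its legs overlapped in both strains, and its changes of 0.22 ± 0.15 (SE) in BALB/c (adjusted p = 0.251) and 0.18 ± 0.09 (SE) in C57BL/6 (adjusted p = 0.129) were not called. After rescaling the changes of Dnajb9 turned to -0.28 in BALB/c (adjusted p = 0.138) and -0.52 in C57BL/6 (adjusted p = 0.00168), of which the C57BL/6 change was called lower. Without BALB/c right library 2, the BALB/c change of Dnajb9 was called higher, at 0.36 (adjusted p = 0.0319; 0.0319 to 0.567 over all left-out libraries).

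As deposited, 3 of the 38 tested DnaJ genes (7.89%) were called lower in BALB/c and 2 (5.26%) in C57BL/6. The shares of all genes called lower were 7.67% and 8.56%. Dnajb5 had 53.2, 55.5 and 55.8 RPKM in BALB/c right legs, against 75.6, 89.6 and 81.9 RPKM in BALB/c left legs. Its values were 41.05, 46.4 and 46.1 RPKM in C57BL/6 right legs, against 67.5, 78.01 and 76.5 RPKM in C57BL/6 left legs. Dnajc27, a small GTPase with a J domain, had 5.51, 5.06 and 6.43 RPKM in BALB/c right legs, against 10.6, 14.8 and 10.5 RPKM in BALB/c left legs. Its values were 6.32, 9.12 and 8.37 RPKM in C57BL/6 right legs, against 11.6, 13.4 and 12.2 RPKM in C57BL/6 left legs. For both genes every right library was below every left library of its strain. Dnajb5 changed by -0.58 ± 0.12 (SE) in BALB/c (limma, adjusted p = 0.00527) and -0.73 ± 0.09 (SE) in C57BL/6 (adjusted p = 0.000184). Dnajc27 changed by -1.0 ± 0.17 (SE) in BALB/c (adjusted p = 0.002) and -0.63 ± 0.13 (SE) in C57BL/6 (adjusted p = 0.00399). Dnajc28 had 3.33, 2.62 and 2.84 RPKM in BALB/c right legs, against 4.37, 7.17 and 4.098 RPKM in BALB/c left legs. Its values were 4.92, 5.799 and 4.54 RPKM in C57BL/6 right legs, against 5.19, 4.91 and 5.37 RPKM in C57BL/6 left legs. The legs overlapped in C57BL/6 and not in BALB/c. In BALB/c it was called lower at -0.70 ± 0.22 (SE) (adjusted p = 0.0287), and its C57BL/6 change of -0.02 ± 0.10 (SE) was not called (adjusted p = 0.848). After rescaling Dnajc28 was called lower in both strains, with -1.16 in BALB/c (adjusted p = 0.00211) and -0.68 in C57BL/6 (adjusted p = 0.000638). The BALB/c call of Dnajc28 was lost without left library 2 (-0.47), right library 2 (-0.64) or right library 3 (-0.69), with an adjusted p of 0.0323 to 0.0777 over all left-out libraries.

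Dnajb3 was the lowest DnaJ gene that was tested, and its ratio of reads exceeded the RPKM ratio of Dnajb14. It had 42 reads over the BALB/c right legs and 3 over the BALB/c left legs, a ratio of 13.5 with an exact 95% counting interval of 4.32 to 68.2. In C57BL/6 it had 31 reads over the right legs and 2 over the left legs, a ratio of 15.3 (3.91 to 132). The intervals cover counting error only, and the Dnajb3 span overlaps that of Ugt1a genes, whose reads, uncounted by strand, may be among its own. Dnajb3 passed the limit of 0.5 RPKM only through its right legs, so these ratios are in part what that limit required. Spans of other genes also overlap those of Dnajb6 (Gm5129), Dnajc14 (Ormdl2), Dnajc17 (Gm14137 and Zfyve19) and Dnajc30 (Bud23). The other members called higher in both strains were Dnajc4, Dnajc7, Dnajc11, Dnajc14, Dnajc17, Dnajc18, Dnajc24, Dnajc25 and Dnajc30. After rescaling none of these 9 was called higher in both strains: Dnajc4, Dnajc14 and Dnajc18 were in BALB/c and Dnajc30 in C57BL/6. As deposited, called higher in BALB/c only were Dnajc9 and Dnajc21 of this class, and in C57BL/6 only Dnaja3, Dnajb4 and Dnajc16; of these, limma called a difference between the strains for Dnajc21 alone. None of the 5 was called higher after rescaling: Dnaja3 was called lower in both strains, with -0.84 in BALB/c (adjusted p = 0.00152) and -0.49 in C57BL/6 (adjusted p = 0.000373), and Dnajc9 (-0.46, adjusted p = 0.0102) and Dnajc21 were called lower in C57BL/6. Not called in either strain were Dnaja2, Dnajb9, Dnajb12, Dnajc12, Dnajc13, Dnajc15 and Dnajc19, of which Dnajc15 and Dnajc19 serve import into mitochondria; with Hspa12a these were the 8 members called in neither strain. After rescaling, the 7 DnaJ genes among them were called lower in C57BL/6, at -0.52 to -0.68, and Dnajc12 (-0.71) and Dnajc13 (-0.45) also in BALB/c. Some calls as deposited turned on 1 BALB/c library. The rise of Dnajc11 was not called without left library 1 or 3 or any right library (0.29 to 0.39, adjusted p 0.0328 to 0.158 over all left-out libraries), that of Dnajc24 without any left library or right library 1 or 2 (0.44 to 0.57, 0.0223 to 0.117), that of Dnajc25 without left library 1 or 3 or right library 1 or 3 (0.46 to 0.56, 0.0135 to 0.0709) and that of Dnajc9 without any left library or right library 1 or 3 (0.33 to 0.41, 0.0252 to 0.106). Without right library 2, BALB/c calls were gained by Dnaja2 (0.41), Dnajb12 (0.70) and Dnajc16 (0.66). Without C57BL/6 right library 2, Dnaja2 was called higher in C57BL/6 (0.22).

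**Figure D4:**
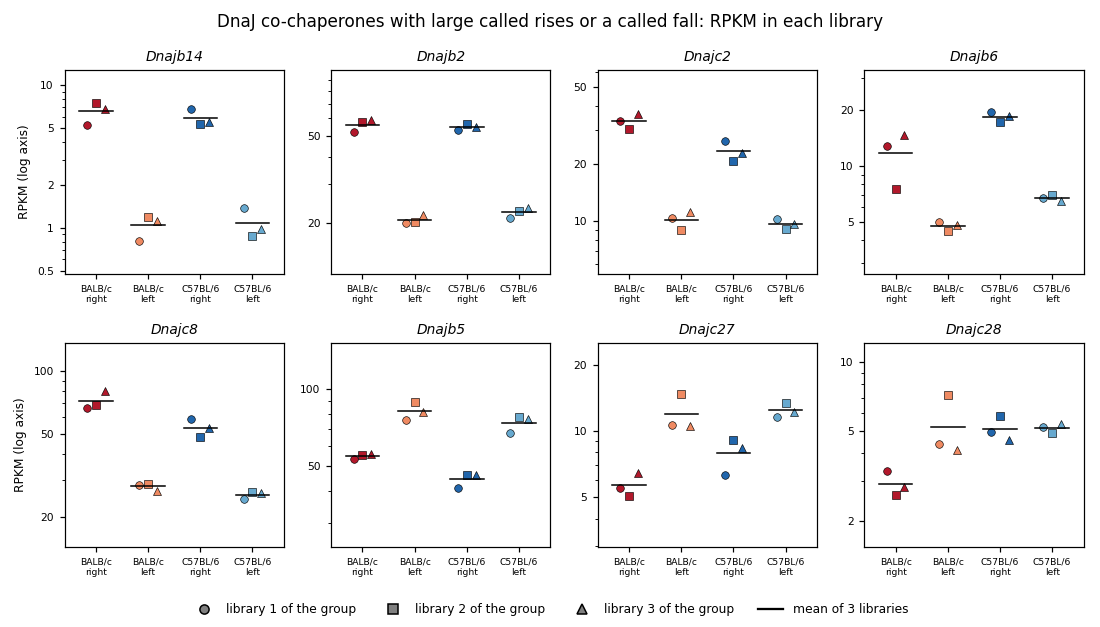
RPKM (log axis) in each library of 8 DnaJ genes, 5 of those with the largest called rises and the 3 called lower in a strain, in BALB/c right, BALB/c left, C57BL/6 right and C57BL/6 left legs; marker shapes give the library number and bars the mean of 3 libraries. Dnajb14, Dnajb2, Dnajc2, Dnajb6 and Dnajc8 are higher in all right than in all left libraries of a strain, Dnajb5 and Dnajc27 are lower in all right libraries, and Dnajc28 is lower in all BALB/c right libraries while its C57BL/6 legs overlap.

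The change between the legs was then compared between the strains, taking the change in BALB/c less that in C57BL/6. Of the 65 members, limma called 6 with a lower and 1 with a higher change in BALB/c, while 4.33% and 1.76% of all 14165 tested genes were so called. The median difference of all tested genes was -0.14, and that of the members was -0.13. The 6 with a lower change in BALB/c were Hspb7, Hspb6, Hspa2, Hspa4l, Dnaja4 and Hspa9, and the one with a higher change was Dnajc21. After rescaling, 4 (6.15%) were called lower, Hspb7, Hspb6, Hspa2 and Hspa4l, and 2 (3.08%) higher, Dnajc21 and Hspe1 (0.84, adjusted p = 0.0431). Of all 14080 genes tested then, 3.52% were called lower and 3.72% higher. The calls of Dnaja4 (-0.89, adjusted p = 0.0621) and Hspa9 (-0.68, adjusted p = 0.0501) were lost. Without BALB/c left library 1, calls were gained by Dnaja3, Dnajb4 (-0.93) and Hspa1a (-1.48), and Dnaja3 was also called without BALB/c right library 1 or 2 (-0.63 to -0.46 over these). Hspe1 was called higher without BALB/c right library 1 (0.77), and Dnajb12 without BALB/c right library 2 (0.61). For Hspb7 the difference was -2.97 ± 0.49 (SE) (limma, adjusted p = 0.0072) and for Hspb6 it was -2.20 ± 0.49 (SE) (adjusted p = 0.0257).

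Markers of slow fibres differed between the same groups. The 8 slow fibre markers summed to 3486, 5097 and 2912 RPKM in BALB/c right libraries 1, 2 and 3, 331, 2758 and 2650.1 in BALB/c left libraries, 1353, 2019 and 1106 in C57BL/6 right libraries and 64.9, 47.7 and 41.3 in C57BL/6 left libraries, and no marker was at 0 in all libraries of a group. Of the 8, 2 (25%) were called higher in BALB/c, against 42.5% of all genes, and 8 (100%) in C57BL/6, against 63.6%. A lower change in BALB/c was called for 4 (50%), against 4.33% of all genes. BALB/c left library 1 was the lowest of its group for these markers, for Hspb7 and for Hspb6. Without that library the difference was -3.41 for Hspb7 (limma, adjusted p = 0.00158) and -2.51 for Hspb6 (adjusted p = 0.0115), both still called. Lower changes in BALB/c were also called for 3 of 12 macrophage, 3 of 9 fibro-adipogenic progenitor and 1 of 6 myofibre markers. A higher change was called for 1 of 8 fast fibre markers (12.5%), against 1.76% of all genes. The part of any of these markers in the differences of Hspb7 and Hspb6 was not tested. Over all 12 left-out libraries the Hspb7 difference ranged from -3.41 to -2.74, and the adjusted p was 0.00158 to 0.0273. The Hspb6 difference was no longer called without any 1 of C57BL/6 left library 1, 2 or 3, C57BL/6 right library 2 or 3, BALB/c left library 2 or 3, or BALB/c right library 3, with values from -2.57 to -1.90 and an adjusted p of 0.00718 to 0.0688 over all left-out libraries.

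Hspa2, an Hsp70 best known from the testis, had 4.17, 3.65 and 3.71 RPKM in BALB/c right legs, against 1.94, 4.16 and 3.098 RPKM in BALB/c left legs. Its values were 5.07, 5.75 and 6.75 RPKM in C57BL/6 right legs, against 1.402, 1.48 and 1.497 RPKM in C57BL/6 left legs. The BALB/c legs overlapped through left library 2, and the C57BL/6 legs were apart. The log2 change was 0.33 ± 0.24 (SE) in BALB/c (limma, adjusted p = 0.279) and 1.69 ± 0.11 (SE) in C57BL/6 (adjusted p = 1.26e-05), a difference of -1.36 ± 0.28 (SE) (adjusted p = 0.0182). The BALB/c change turned to -0.12 after rescaling. The difference of Hspa2 was not called without C57BL/6 right library 3 (-1.26, adjusted p = 0.0535). For Hspa4l, whose values are given above, the difference was -1.10 ± 0.21 (SE) (adjusted p = 0.0146), and it was called without each of the 12 libraries (adjusted p 0.0155 to 0.0468).

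The difference was -1.08 ± 0.23 (SE) for Dnaja4 (limma, adjusted p = 0.02) and -0.87 ± 0.19 (SE) for Hspa9 (adjusted p = 0.0213). For Dnaja4 it was not called without C57BL/6 left library 3 (-1.01) or C57BL/6 right library 2 (-1.03), with an adjusted p of 0.00136 to 0.0587 over all left-out libraries. For Hspa9 it was not called without C57BL/6 left library 1, 2 or 3 or C57BL/6 right library 2 or 3 (-0.97 to -0.70, adjusted p 0.0168 to 0.0604 over all left-out libraries). Dnajc21, which serves the assembly of large ribosomal subunits, had 45.6, 41.1 and 44.2 RPKM in BALB/c right legs, against 32.5, 27.1 and 28.2 RPKM in BALB/c left legs. Its values were 37.9, 31.8 and 34.7 RPKM in C57BL/6 right legs, against 37.4, 33.7 and 32.97 RPKM in C57BL/6 left legs. The BALB/c legs were apart and the C57BL/6 legs overlapped. The log2 change of Dnajc21 was 0.57 ± 0.13 (SE) in BALB/c (adjusted p = 0.00627) and 0.00 ± 0.09 (SE) in C57BL/6 (adjusted p = 0.981), and the difference was 0.57 ± 0.14 (SE) (adjusted p = 0.0399). After rescaling the BALB/c change was 0.05 and not called, and the C57BL/6 change was -0.71 and called lower. The call of the difference was lost without 9 of the 12 libraries, all but C57BL/6 right library 1, BALB/c left library 1 and BALB/c right library 2, and the difference ranged from 0.51 to 0.64 (adjusted p 0.0225 to 0.109) over the 12 left-out libraries.

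**Figure D5:**
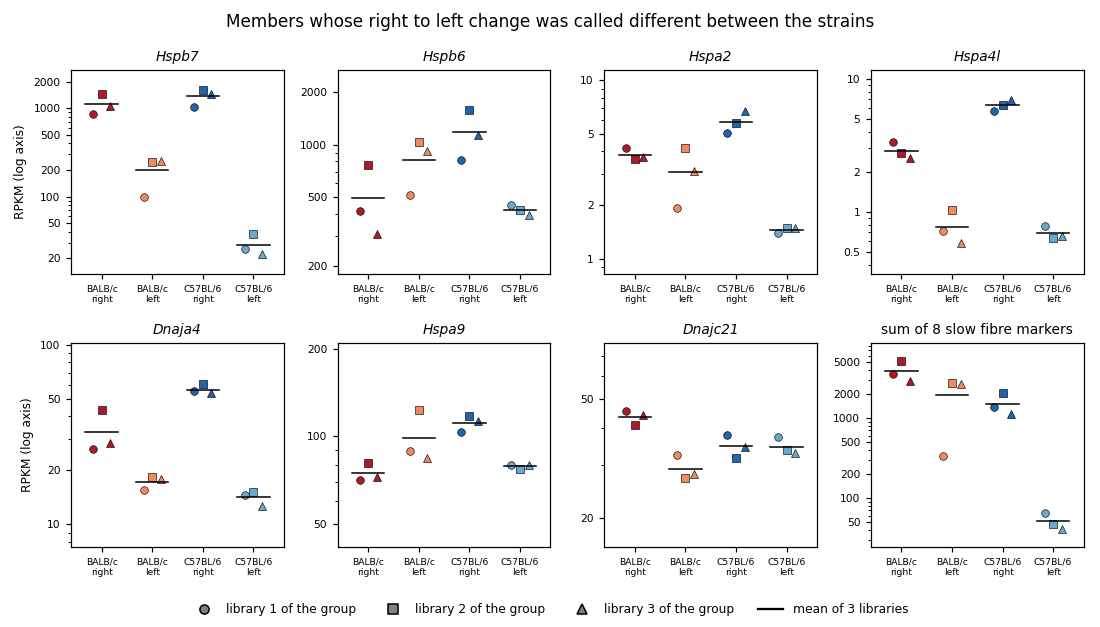
RPKM (log axis) in each library of the 7 members with a called difference between the strains, and the summed RPKM of 8 slow fibre markers, in BALB/c right, BALB/c left, C57BL/6 right and C57BL/6 left legs; marker shapes give the library number and bars the mean of 3 libraries. Hspb7 reaches similar levels in the right legs of both strains but is higher in all BALB/c left than in all C57BL/6 left libraries, and BALB/c left library 1 lies lowest of its group for Hspb7, Hspb6, Hspa2 and the slow fibre markers. Levels were not tested between the strains, which were normalized separately.

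The partners of these chaperones were described by 5 lists, whose counts are set against the 42.5% of all genes called higher in BALB/c and the 63.6% in C57BL/6, or 21.8% and 28.2% after rescaling. The shares of all genes called lower were 7.67% in BALB/c and 8.56% in C57BL/6, or 19.2% and 26.6% after rescaling. Among heat shock factors and their regulators, 5 of 7 were tested and limma called 4 higher (80%) and 1 lower in BALB/c and 4 higher (80%) and 1 lower in C57BL/6, and after rescaling 3 higher and 1 lower in BALB/c and 2 higher and 2 lower in C57BL/6. Hsf1, the main activator of the heat shock genes, had 56.9, 48.2 and 52.02 RPKM in BALB/c right legs, against 23.96, 27.7 and 27.7 RPKM in BALB/c left legs. Its values were 36.9, 37.6 and 35.1 RPKM in C57BL/6 right legs, against 24.2, 24.9 and 27.2 RPKM in C57BL/6 left legs. The legs did not overlap in either strain. Hsf1 rose by 0.97 in BALB/c (limma, adjusted p = 0.000561) and by 0.51 in C57BL/6 (adjusted p = 0.000439), which in C57BL/6 was below the median gene and turned to -0.20 after rescaling. Hsf4, best known from the lens, rose by 2.45 in BALB/c (adjusted p = 3.82e-05) and by 1.71 in C57BL/6 (adjusted p = 3.4e-05), and Hsf2 by 0.83 in BALB/c (adjusted p = 0.00313) and 1.35 in C57BL/6 (adjusted p = 6.99e-05), with the BALB/c call of Hsf2 lost after rescaling (0.34, adjusted p = 0.138). Hsbp1l1, related to a negative regulator of Hsf1, changed by -0.87 in BALB/c (adjusted p = 0.00716) and -0.73 in C57BL/6 (adjusted p = 0.013).

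Of 15 Hsp70 exchange factors and co-chaperones, limma called 11 higher (73.3%) and 1 lower in BALB/c and 14 higher (93.3%) and 1 lower in C57BL/6, and after rescaling 6 higher and 1 lower in BALB/c and 7 higher and 2 lower in C57BL/6. Bag3, which joins Hspb8 to Hsp70, had 122, 92.6 and 119.9 RPKM in BALB/c right legs, against 52.9, 106 and 70.4 RPKM in BALB/c left legs. Its values were 111, 124 and 124 RPKM in C57BL/6 right legs, against 46.98, 48.8 and 43.6 RPKM in C57BL/6 left legs. BALB/c left library 2 lay within the range of the right legs, while the C57BL/6 legs were apart. Bag3 rose by 1.36 in C57BL/6 (limma, adjusted p = 7e-06), and its BALB/c change of 0.59 was not called (adjusted p = 0.0859) but was called without BALB/c left library 2, at 0.85 (adjusted p = 0.0114; 0.0114 to 0.259 over all left-out libraries). The difference between the strains for Bag3 was not called (-0.77 ± 0.29 (SE), adjusted p = 0.128). In this list limma called a lower change in BALB/c for 2 genes (13.3%), against 4.33% of all genes. They were Hyou1 (-0.65, adjusted p = 0.03) and Synpo2 (-1.16, adjusted p = 0.0481), both also called after rescaling. Bag1 rose by 1.90 in BALB/c (adjusted p = 0.000287) and by 1.58 in C57BL/6 (adjusted p = 3.67e-05). Hyou1, the exchange factor of Hspa5, rose by 1.03 in BALB/c (adjusted p = 0.000834) and by 1.68 in C57BL/6 (adjusted p = 2.05e-06). Stub1, the ubiquitin ligase bound to Hsp70 and Hsp90, rose by 0.64 in BALB/c (adjusted p = 0.00454) and by 0.44 in C57BL/6 (adjusted p = 0.0041), below the C57BL/6 median gene, and after rescaling it was not called in BALB/c (0.12) and called lower in C57BL/6 (-0.28). Synpo2, which works with Bag3 in filamin turnover, was the one member of this list called lower, with -1.79 in BALB/c (adjusted p = 0.000823) and -0.62 in C57BL/6 (adjusted p = 0.00159).

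Of 18 Hsp90 co-chaperones and relatives, limma called 10 higher (55.6%) and 1 lower in BALB/c. It called 11 higher (61.1%) and 1 lower in C57BL/6, where the share called higher was below that of all genes. After rescaling it called 1 higher and 4 lower (22.2%) in BALB/c, where 19.2% of all genes were called lower. The rescaled C57BL/6 counts were 3 higher and 9 lower (50%), where 26.6% of all genes were called lower. The kinase adaptor Cdc37 rose by 1.04 in BALB/c (limma, adjusted p = 0.000681) and by 1.17 in C57BL/6 (adjusted p = 7.92e-06). The myosin chaperone Unc45b had 0.18 in BALB/c (adjusted p = 0.312) and 0.24 in C57BL/6 (adjusted p = 0.00749), of which the C57BL/6 change was called, lay below the median gene and turned to -0.47 after rescaling, where it was called lower. Smyd1, a methyltransferase that works with Unc45b and Hsp90 on myosin, had 100.3, 102 and 88.1 RPKM in BALB/c right legs, against 172, 165 and 174 RPKM in BALB/c left legs. Its values were 97.5, 114 and 101 RPKM in C57BL/6 right legs, against 170.0, 173 and 168 RPKM in C57BL/6 left legs. Every right library of Smyd1 was below every left one, with changes of -0.81 in BALB/c (adjusted p = 0.00126) and -0.71 in C57BL/6 (adjusted p = 0.00013).

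Of 15 genes of the cytosolic chaperonin and prefoldin, which fold actin and tubulin, limma called 13 higher (86.7%) in BALB/c and 14 higher (93.3%) in C57BL/6, and after rescaling 9 higher in BALB/c and 10 higher and 2 lower in C57BL/6. Cct3 rose by 1.64 in BALB/c (limma, adjusted p = 0.000109) and by 2.01 in C57BL/6 (adjusted p = 6.72e-07), and Pfdn5 by 1.71 in BALB/c (adjusted p = 0.00013) and 1.16 in C57BL/6 (adjusted p = 3.36e-05). Of 18 chaperones and stress genes of the endoplasmic reticulum, limma called 14 higher (77.8%) in BALB/c and 17 higher (94.4%) in C57BL/6, and after rescaling 8 higher in BALB/c and 11 higher and 2 lower in C57BL/6. Sdf2l1, a partner of Dnajb11, rose by 1.56 in BALB/c (adjusted p = 0.000447) and by 2.13 in C57BL/6 (adjusted p = 1.73e-05), and Manf, a secreted stress protein, by 1.60 in BALB/c (adjusted p = 0.000224) and 1.58 in C57BL/6 (adjusted p = 1.1e-05).

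Markers of other cells and of tissue handling were measured as well. The shares of all genes called were 42.5% higher and 7.67% lower in BALB/c and 63.6% and 8.56% in C57BL/6. Rescaled, these shares were 21.8% and 19.2% in BALB/c and 28.2% and 26.6% in C57BL/6. Of 12 macrophage markers, 10 were called higher in BALB/c, where their sums were 200.2 to 325 RPKM in right legs and 67.01 to 110.3 RPKM in left legs, and 12 in C57BL/6, with 99.5 to 197 RPKM in right legs and 10.5 to 13.9 RPKM in left legs. Of 10 genes that respond to the handling of tissue, 5 were called higher and 1 lower in BALB/c, and 5 higher in C57BL/6 (50% higher in each strain, against 42.5% of all genes in BALB/c and 63.6% in C57BL/6), and 2 higher in BALB/c and 3 in C57BL/6 after rescaling and 1 lower in each, with sums of 287 to 468 RPKM in BALB/c right, 89.3 to 215 in BALB/c left, 199 to 323 in C57BL/6 right and 56.7 to 105 in C57BL/6 left legs. Of 8 fast fibre markers, 3 were called lower in BALB/c and 8 in C57BL/6, and of 9 markers of fibro-adipogenic progenitors 5 were called higher and 1 lower in BALB/c and 9 higher in C57BL/6. After rescaling, 2 of the 9 were called lower in BALB/c and 5 higher in C57BL/6, and of the 12 macrophage markers 8 were called higher in BALB/c and 12 in C57BL/6. No marker of these lists was at 0 in all libraries of a group. The part of these cells and of handling in the changes of the heat shock genes was not tested.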

How the data were processed

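Per the file headers, the authors used HOMER with its mm9 annotation for counting over exons without regard to strand, with a single transcript for each gene, and deposited RPKM values in 1 table per strain. Per the submitters' processing notes, HISAT2, HOMER and DESeq2 and the builds GRCm38 and mm10 were used, without versions or roles; the build of the alignment is otherwise not given in the sources used here. Positions of genes are in mm9 as the files list them, and promoters are in GRCm38.p6. The tables were normalized separately and tests of the legs were made within a table. Reads recovered from RPKM, the listed length and the library's total were whole to within 0.1 for 98.8% to 99.7% of the values above 0 of each library.

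Values were taken as log2(RPKM + 0.5), which understates the change of low genes. A gene entered a table's test when its 6 libraries averaged 0.1 RPKM or more. The two-sided test was limma's (version 3.58.1, R 4.3.3, trended eBayes), p-values were adjusted by Benjamini-Hochberg over every gene in it, and 0.05 was the threshold for a call. The strain difference was a contrast in 1 fit over 12 libraries. The procedure was tested on simulated reads. Strand was not used, so overlapping genes share reads.

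Tried as alternatives were a pseudocount of 0.1 or of 1, a filter of 1 RPKM or none at all, libraries rescaled with median-of-ratios factors or to a common sum, a block for the replicate number, untrended eBayes, 1 spread for all 12 libraries, limma-voom on the recovered reads, and each library left out in turn. Named in full were 30 listed members, the 5 DnaJ genes with the largest called rise and fall per strain, up to 5 called strain differences in each direction, 6 listed partners and the largest called rise and fall of each partner list; other members are named to account for every one. The members and lists were chosen with earlier results of these data known.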

Additional observations from a re-analysis of the deposited data

Results flagged for a closer look

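The right to left change differed between the strains, by limma's test of the difference itself, for 7 members. The change in BALB/c less that in C57BL/6 was -2.97 for Hspb7, -2.20 for Hspb6, -1.36 for Hspa2, -1.10 for Hspa4l, -1.08 for Dnaja4, -0.87 for Hspa9 and 0.57 for Dnajc21, on the log2(RPKM + 0.5) scale. In the left legs Hspb7 averaged 199 ± 86.7 RPKM in BALB/c and 28.7 ± 8.003 RPKM in C57BL/6, and Hspb6 averaged 820.0 ± 273 RPKM in BALB/c and 422 ± 28.96 RPKM in C57BL/6 (SD, n = 3 each). The tables were normalized separately and levels were not tested across them.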

How the results depend on the processing

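Of the changes of named genes, 30 of 53 in BALB/c, 39 of 53 in C57BL/6 and 2 of 7 differences between the strains kept direction and side of the threshold under every alternative run. Median-of-ratios rescaling, which takes the shift of the median gene out of both legs, moved the members called higher to 24 in BALB/c (44 as deposited) and 30 in C57BL/6 (50), and those called lower to 12 in BALB/c (3), of which Hspb9 was not among the 65 described, and 19 in C57BL/6 (3). A common sum gave 26 higher in BALB/c, and a spread shared over 12 libraries 6 lower there. Of differences between the strains, 1 was called higher and 6 lower; without a filter these were 0 and 2, and the counts of higher ones were 2 after median-of-ratios rescaling, 0 with a common sum and 0 without a trend. With 1 library left out, 0 to 2 were called higher and 3 to 9 lower. The cause of these moves was not tested.

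Of the 65 members, 12 in BALB/c and 20 in C57BL/6 turned sign under median-of-ratios rescaling. Among the genes named by the rule, signs turned as follows. Median-of-ratios rescaling gave, in BALB/c, -0.28 for Dnajb9, -0.27 for Hspa1a, -0.0052 for Hspa1b, -0.12 for Hspa2 and -0.34 for Unc45b, and in C57BL/6 -0.0253 for Dnajb4, -0.52 for Dnajb9, -0.71 for Dnajc21, -0.195 for Hsf1, -0.23 for Hspa9, -0.57 for Hspb2, -0.36 for Hspd1, -0.400 for Hspe1, -0.28 for Stub1 and -0.47 for Unc45b. A common sum gave -0.13 for Hspa1a and -0.0358 for Unc45b in BALB/c, and a pseudocount of 1 gave -0.0144 for Hspa1a. With 1 library left out, BALB/c changes ran from -0.29 to 0.25 for Dnajb4, -0.43 to 0.39 for Hspa1a and -0.0605 to 0.600 for Hspa1b, and C57BL/6 changes from -0.0596 to 0.0652 for Dnajc21 and -0.11 to 0.0478 for Dnajc28.

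The labels do not say whether samples with the same number came from the same mouse. In BALB/c the deposited codes also shared a number between the legs for library 3, where it differs from the title. Deviations of samples with the same number from the group means correlated by 0.0301 to 0.203 in BALB/c and 0.0335 to 0.117 in C57BL/6. A replicate block on that number gave 38 members higher and 2 lower in BALB/c, 49 and 3 in C57BL/6, and 1 higher and 6 lower differences. With 3 libraries a leg, and few reads for Hspa1a, Hspa1b and Dnajb3, a p above the threshold does not show that the legs were alike.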
